A study of Mus musculus with 9 samples.

Results

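The genes described here encode the subunits of the oxidative phosphorylation machinery that are made from nuclear DNA. They were taken by symbol, through the GENCODE M21 annotation, as the protein-coding genes named Nduf followed by A, B, C, S or V and a number (complex I), Sdha to Sdhd (complex II), Uqcr and Cyc1 (complex III), Cycs (cytochrome c), Cox4 to Cox8 followed by a, b or c (complex IV) and Atp5 (complex V), without the Ndufaf assembly factors. The rule found 85 of the 54232 genes in the table: 37 of complex I, 4 of complex II, 9 of complex III, 1 for cytochrome c, 16 of complex IV and 18 of complex V. They carry 84 symbols, since Atp5o stands under 2 gene IDs. The rule does not reach Cox4i1 and Cox4i2, whose symbols have an i in that place. Ndufa4, known as a subunit of complex IV, and its relative Ndufa4l2 are counted with complex I throughout, by symbol.

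The oxidative phosphorylation system sits in the inner mitochondrial membrane. Complexes I and II pass electrons from NADH and succinate to ubiquinone, complex III passes them on to cytochrome c, and complex IV gives them to oxygen, while complexes I, III and IV pump protons that drive ATP synthesis in complex V. All complexes but II also need subunits encoded by mitochondrial DNA, so that a nuclear set and a mitochondrial set of transcripts have to be made together. Pluripotent cells are known for a high rate of glycolysis, and the weight of respiration is known to shift as embryonic cells differentiate.

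The RNA came from wild-type embryonic stem cells of the mouse, differentiated as embryoid bodies, in which aggregates of pluripotent cells form derivatives of the germ layers. The samples form 3 groups of 3 libraries, labelled EBD2, EBD5 and EBD6. The labels name no treatment, give no meaning for the digit in a group's name and leave unsaid whether replicates came from separate cultures, so the p-values speak only of how far these samples varied, perhaps for technical reasons. Polyadenylated RNA was sequenced, and the table holds estimated counts per gene. Libraries held between 5453412 and 11703371 counts. EBD2 replicates 1 and 2 and EBD6 replicates 2 and 3 showed no more difference over genes than sampling noise gives by chance (chi-square per gene 0.949 and 1.01, the latter with p = 0.169 in a chi-square test of counts), so that the counts of each such pair were added up and enter as 1 sample. A mean ± SD is therefore over n = 2, 3 and 2 samples of EBD2, EBD5 and EBD6. Levels are counts scaled to library size (CPM), and a gene is called higher or lower at an adjusted p under 0.05 by edgeR's quasi-likelihood test with Benjamini-Hochberg adjustment over all 16168 genes tested. The summed level of 6 pluripotency markers was 1122 to 1275 CPM in EBD2, 856 to 929 CPM in EBD5 and 899 to 1002 CPM in EBD6. That of 6 visceral endoderm markers was 21.2 to 23.2, 2158 to 2250 and 1139 to 1224 CPM. The members of each list did not all follow its sum. Of the pluripotency markers, 2 were higher and 2 lower in EBD5 than EBD2. In EBD2, EBD5 and EBD6, Nanog had 185, 231 and 180 CPM and Klf4 had 17.4, 22.5 and 49.6 CPM. Of the visceral endoderm markers, 2 were higher and 3 lower in EBD6 than EBD5. Afp went from 71.6 CPM in EBD5 to 138 CPM in EBD6, and Cubn from 1125 to 406 CPM. In bulk RNA, fewer cells of a type and less RNA per cell cannot be told apart.

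The EBD5 libraries also differed in their classes of RNA, which touches each comparison with EBD5. Nuclear ribosomal RNA took 0.726% to 0.811% of counts there and 0.0165% to 0.0247% in the other 2 groups, and processed pseudogenes took 1.12% to 1.14% against 0.194% to 0.347%. The log2 fold changes of genes also went with their GC content. Over the 81 subunit genes tested, Spearman's rho was -0.40 for EBD5 against EBD2 and 0.38 for EBD6 against EBD5, beside -0.37 and 0.57 over 13752 protein-coding genes. Genes are not independent of each other, and no p is given. The part of GC content in the results below was not tested beyond a fit that levels GC content and length in bins, whose values are given where they end a call.

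The start regions of the subunit genes are shown because the letters of some transcription factor motifs were more frequent in them than in promoters at large. RefSeq windows from 250 bases before to 50 bases after the annotated start (GRCm38.p6, the assembly of the files' mm10) were available for 69 of the 85 genes. A gene with several windows was counted once, if any of them held the letters. The NRF1 letters GCGCATGC, on either strand, were found for 11 of these 69 genes (15.9%) and for 3.94% of 17492 protein-coding genes. NRF1, nuclear respiratory factor, is known as an activator of respiratory chain genes. The YY1 letters AAGATGGC were found for 10 genes (14.5%) against 3.57% of all, and the ETS letters CCGGAAGT for 5 (7.25%) against 5.69%. The Sp letters GGGCGG were found for 29 (42.0%) against 49.2%, and the TATA letters TATAAA for 7 (10.1%) against 14.8%. The windows of cytochrome c and Uqcrc1 are printed as cases with the NRF1 letters, and those of Atp5f1 and Ndufs7 as cases with the YY1 letters. In each pair of genes, one transcript was higher and the other lower in EBD5 than in EBD2, as given with their values. Capitals mark the NRF1 or YY1 letters or their reverse complement, and in Uqcrc1 a match on either strand overlaps in 1 run.
Cycs, chr6:50566520-50566819, minus strand: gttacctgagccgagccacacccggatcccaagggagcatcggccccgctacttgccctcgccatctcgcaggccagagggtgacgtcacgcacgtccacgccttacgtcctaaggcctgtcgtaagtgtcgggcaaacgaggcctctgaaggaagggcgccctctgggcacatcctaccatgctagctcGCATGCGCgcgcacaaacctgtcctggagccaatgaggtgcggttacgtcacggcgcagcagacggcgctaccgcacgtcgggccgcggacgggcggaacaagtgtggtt
Uqcrc1, chr9:108936398-108936697, plus strand: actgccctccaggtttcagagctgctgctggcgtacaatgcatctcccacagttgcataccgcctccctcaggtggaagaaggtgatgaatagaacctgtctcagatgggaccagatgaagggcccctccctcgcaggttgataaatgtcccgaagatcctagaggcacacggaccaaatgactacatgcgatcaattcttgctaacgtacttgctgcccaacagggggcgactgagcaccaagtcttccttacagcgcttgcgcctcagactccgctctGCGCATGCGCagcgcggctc
Atp5f1, chr3:105959214-105959513, minus strand: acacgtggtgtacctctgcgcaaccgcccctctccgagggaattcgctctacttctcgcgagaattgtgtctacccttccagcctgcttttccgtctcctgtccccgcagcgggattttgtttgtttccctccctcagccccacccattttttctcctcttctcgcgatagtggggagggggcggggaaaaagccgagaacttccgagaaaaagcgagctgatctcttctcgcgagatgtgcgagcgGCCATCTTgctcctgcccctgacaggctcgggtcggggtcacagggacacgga
Ndufs7, chr10:80249199-80249498, plus strand: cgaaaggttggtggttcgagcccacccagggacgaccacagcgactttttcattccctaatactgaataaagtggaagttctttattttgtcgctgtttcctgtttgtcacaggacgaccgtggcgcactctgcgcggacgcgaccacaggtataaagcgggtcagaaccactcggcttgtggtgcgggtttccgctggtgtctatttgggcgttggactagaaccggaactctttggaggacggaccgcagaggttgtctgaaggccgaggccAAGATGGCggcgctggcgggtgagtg
The marked letters began 60 bases before the start in Cycs and 3 bases before it in Atp5f1, and 30 and 24 bases after it in Uqcrc1 and Ndufs7. Of the genes with windows that were called higher in EBD5 than EBD2, 3 of 17 held the NRF1 letters and 2 of 17 the YY1 letters. Of those called lower it was 3 of 15 for both, and of those not called 5 of 35 for both. A match is a description of the letters and does not show that the factor binds.

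Of the 85 genes, 81 had enough counts to be tested. Complex IV held the 4 that had not: Cox8b had no count in any library, Cox6a2 had 3 counts in all, and Cox7b2 and Cox8c had 36 and 12. Levels of different genes were compared per length, as length-scaled levels (TPM) computed here from the counts and the median length of each gene's protein-coding transcripts. On that scale Atp5b, the catalytic beta subunit of ATP synthase, was the highest of the 85 in every group, at a mean of 632, 556 and 541 TPM in EBD2, EBD5 and EBD6. With the length of all exons merged, Atp5a1, the alpha subunit, came first with 835, 609 and 663 TPM, ahead of Atp5b with 707, 592 and 596. The order of the leading genes therefore depends on the length assumed. In total the 85 genes took 0.575% to 0.683% of a library's counts. Their summed level was 6046 ± 404 CPM in EBD2, 6153 ± 91.2 CPM in EBD5 and 6018 ± 772 CPM in EBD6, so that on the CPM scale the group means differed by less than the SD within EBD2 or EBD6. Per length the sum was 12732 ± 411 TPM in EBD2, 11691 ± 164 in EBD5 and 13386 ± 1627 in EBD6. On that scale the EBD5 samples, at 11531 to 11858 TPM, lay below all other samples, of which the lowest had 12236 TPM.

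The complexes differed in how their sums changed. The nuclear subunits of complex I summed to 1999 ± 101 CPM in EBD2, 1771 ± 63.9 in EBD5 and 2122 ± 331 in EBD6. The EBD5 libraries, at 1718 to 1842 CPM, all lay below the EBD2 libraries, at 1925 to 2071, and below the EBD6 libraries, at 1872 to 2356. Complex IV went the other way, with 740 ± 41.0 CPM in EBD2, 925 ± 20.96 in EBD5 and 642 ± 123 in EBD6. Its EBD5 libraries, at 903 to 944 CPM, lay above all others, which reached at most 769 CPM. Complex II summed to 501 ± 31.8, 462 ± 13.7 and 540 ± 44.4 CPM, complex III to 660 ± 49.6, 686 ± 17.5 and 727 ± 66.1, and complex V to 2129 ± 179, 2259 ± 84.5 and 1963 ± 202. Per transcript length, the order held for complex I (4889, 3925 and 5320 TPM) and complex IV (2186, 2359 and 1931 TPM), with the EBD5 samples again below or above all others. For complex III the means of EBD2 and EBD5 changed places, at 1797 and 1694 TPM. For complex V the order of the CPM means was reversed, at 3157, 3111 and 3307 TPM in EBD2, EBD5 and EBD6. With merged exon length, the EBD5 samples still lay below all others for complex I. For complex IV they held 2912 to 3051 TPM and overlapped the others, which reached 2975 TPM. Complex III kept the order of the CPM means there (1776, 1883 and 2020 TPM), and complex V had 3369, 3003 and 3351 TPM. These sums were given no test.

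**Figure D1:**
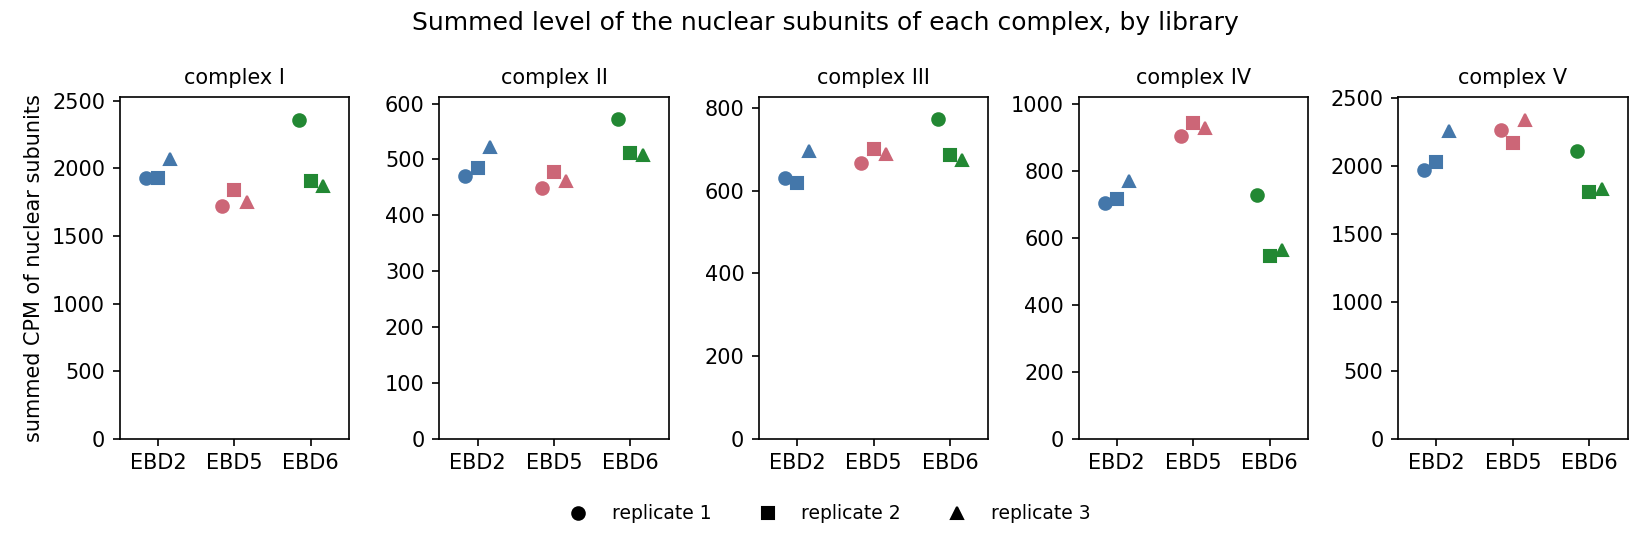
Summed level (CPM, y axis) of the nuclear subunits of complexes I to V in each library of EBD2, EBD5 and EBD6 (x axis), with 1 symbol per replicate. The EBD5 libraries lie lowest for complex I and highest for complex IV, and EBD6 replicate 1 is the highest of its group in each panel.

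Between EBD2 and EBD5, 18 of the 81 subunit genes were higher in EBD5 (22.2%, against 34.9% of all genes tested) and 21 were lower (25.9%, against 35.1%), with 42 not called. The median log2 fold change was -0.02, beside -0.01 over all genes. Calls in either direction took in 48.1% of the subunit genes and 70.0% of all genes, and 47.3% and 72.7% of those in the range of 10 to 200 CPM. The median size of the log2 fold change was 0.27 for the subunits and 0.58 for all genes, or 0.26 and 0.45 in that range. Called changes went mostly down in complex I (3 higher, 12 lower) and up in complex IV (5 and 2) and complex V (5 and 2), with 1 and 2 in complex II, 3 and 3 in complex III and cytochrome c higher. With GC content and length levelled, complex I had 7 higher and 11 lower, complex IV 3 and 2 and complex V 6 and 1. Whether complexes differ in this was not tested.

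**Figure D2:**
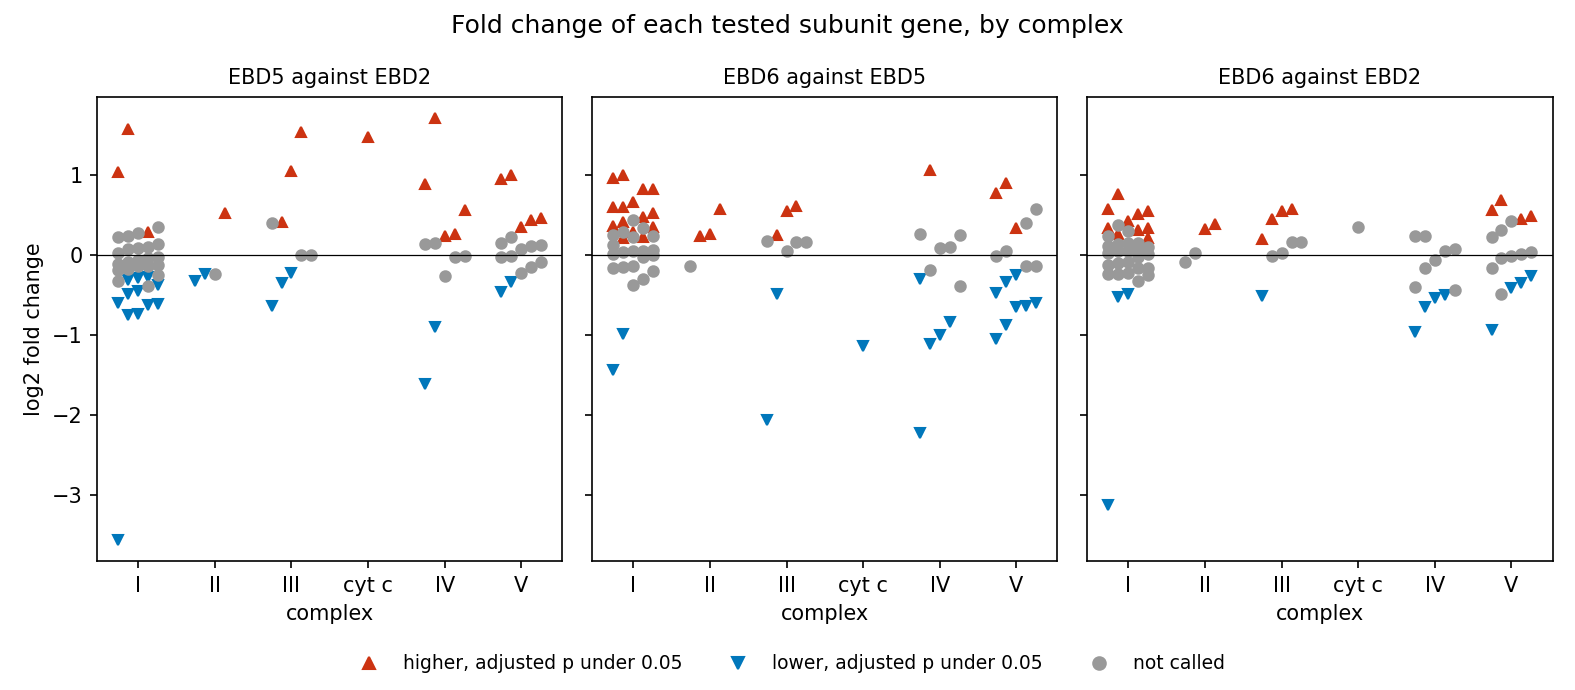
Log2 fold change (y axis) of each of the subunit genes tested, by complex (x axis), in the 3 comparisons, leaving out the second gene ID of Atp5o; triangles are called at an adjusted p under 0.05 and circles are not. In the panel of EBD5 against EBD2 most called genes of complex I lie below 0, while Cox7c, Uqcrb and Cycs lie above the others of their complexes.

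Complex I, the NADH dehydrogenase, is built around a core that carries the flavin and the iron-sulphur clusters. Of its 7 core genes encoded in the nucleus, 5 fell from EBD2 to EBD5 and none rose, with 2 not called. Of all genes tested, 35.1% fell and 34.9% rose. With GC content and length levelled, the 2 not called were called, Ndufs3 higher (0.41) and Ndufv2 lower (-0.53) in EBD5. Ndufv1 (ENSMUSG00000037916), which binds NADH and the flavin, stood at 92.1, 87.6 and 97.7 CPM in EBD2 replicates 1 to 3, at 55.4, 58.3 and 52.5 in EBD5 and at 109, 108 and 107 in EBD6. The 3 groups did not overlap, with EBD5 lowest and EBD6 highest. It fell by 0.75 ± 0.07 (SE) on the log2 scale from EBD2 to EBD5 (adjusted p = 3.73e-06), and was 0.97 ± 0.07 higher in EBD6 than EBD5 (adjusted p = 4.93e-07). Both calls held with GC content and length levelled, where the changes were smaller (-0.31 and 0.39).

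Ndufs7, which holds the last iron-sulphur cluster before ubiquinone, stood at 37.7, 37.7 and 34.3 CPM in EBD2, at 23.4, 21.6 and 20.6 in EBD5 and at 44.4, 41.4 and 44.5 in EBD6. Its order was that of Ndufv1, again without overlap. It fell by 0.73 ± 0.09 to EBD5 (adjusted p = 4.25e-05) and was 0.995 ± 0.09 higher in EBD6 than EBD5 (adjusted p = 2.86e-06), but neither change was called with GC content and length levelled (-0.12 and 0.12). Ndufs8 fell by 0.59 ± 0.12 and Ndufs1, the largest core subunit, by 0.38 ± 0.07. That of Ndufs8 was not called with GC content and length levelled (-0.24), whereas Ndufs1 fell by 0.71 there.

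Accessory subunits surround the core. Of the 29 genes counted as such by symbol, Ndufa4 among them, 3 rose, 6 fell and 20 were not called. Over all genes tested, 34.9% rose and 35.1% fell. The lower ones included Ndufs6 (-0.61 ± 0.19, adjusted p = 0.0141), Ndufa13 (-0.48) and Ndufa3 (-0.45). The call of Ndufs6 was lost without EBD5 replicate 1 (-0.47) or 3 (-0.54), and that of Ndufa13 without EBD2 replicate 3 (-0.41). Ndufa3 lost its call without any one of EBD2 replicates 2 and 3, EBD5 replicates 1 and 3 and EBD6 replicate 2 (-0.44 to -0.29). With GC content and length levelled, Ndufa13 turned to 0.25 and Ndufa3 was not called (-0.36). Against the majority of the complex, Ndufs5, Ndufb4 and Ndufb11 rose, the last of them without a call when EBD2 replicate 3 (0.28) or EBD5 replicate 1 (0.29) or 3 (0.25) was left out. Ndufb4 had 10.01, 10.8 and 8.81 CPM in EBD2, 20.7, 16.9 and 23.0 in EBD5 and 10.7, 9.35 and 10.3 in EBD6, so that only the EBD5 libraries stood apart. Its log2 fold change was 1.04 ± 0.16 (adjusted p = 0.000164) up and -0.99 ± 0.16 (adjusted p = 0.000171) back. Ndufs5 showed the same order at low levels, with 2.47 to 4.24 CPM in EBD2, 7.93 to 11.5 in EBD5 and 3.06 to 4.05 in EBD6. Ndufa2, Ndufa9 and Ndufa4 were not called here.

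Complex II, succinate dehydrogenase, is also an enzyme of the tricarboxylic acid cycle and has no mitochondrially encoded subunit. Sdha, its flavoprotein, had 232, 231 and 254 CPM in EBD2, 188, 201 and 194 in EBD5 and 243, 219 and 213 in EBD6. The EBD5 libraries were lowest, and Sdha fell by 0.32 ± 0.07 (adjusted p = 0.00234). Sdhc, a membrane anchor, fell by 0.24 ± 0.06 (adjusted p = 0.00583), whereas Sdhd, the other anchor, rose by 0.52 ± 0.08 (adjusted p = 0.000204). The call of Sdhc was lost without EBD2 replicate 3 (-0.20), and its fall was larger with GC content and length levelled (-0.37). Sdhd went from 79.6 to 90.3 CPM in the EBD2 libraries to 114 to 132 CPM in those of EBD5, with no overlap. Sdhb, the iron-sulphur subunit, was not called (-0.23, adjusted p = 0.0600).

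In complex III, the cytochrome bc complex, both core proteins fell and both catalytic subunits encoded in the nucleus were called, in opposite directions. Uqcrc1 (ENSMUSG00000025651), a core protein, had 148, 142 and 166 CPM in EBD2, 96.4, 109 and 93.9 in EBD5 and 153, 156 and 151 in EBD6. The EBD5 libraries lay below all others, with a fall of 0.63 ± 0.08 (adjusted p = 3.19e-05), which was smaller but called with GC content and length levelled (-0.28). Uqcrc2, the other core protein, fell by 0.22 ± 0.09 (adjusted p = 0.0441), a call lost without EBD2 replicate 3 (-0.08), EBD6 replicate 1 (-0.21) or any EBD5 replicate (-0.25 to -0.19). Cyc1, the cytochrome, fell by 0.35 ± 0.06 (adjusted p = 0.000431), while Uqcrfs1, the Rieske iron-sulphur protein, rose by 0.41 ± 0.07 (adjusted p = 0.000481). The fold change of Cyc1 turned to 0.02 with GC content and length levelled and was not called there.

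Among the small subunits of complex III, Uqcrb (ENSMUSG00000021520), which lies near the ubiquinone sites, had 49.7, 42.6 and 38.4 CPM in EBD2, 121, 120 and 133 in EBD5 and 38.9, 25.9 and 24.6 in EBD6. Every EBD5 library held more than any other library, and EBD2 and EBD6 overlapped. The log2 fold change to EBD5 was 1.54 ± 0.15 (adjusted p = 3.65e-06), or 0.93 with GC content and length levelled. Uqcr11 rose by 1.05 ± 0.18 (adjusted p = 0.000334) from lower levels, 9.30 to 11.98 CPM in EBD2 and 17.9 to 23.6 in EBD5. Uqcrq, Uqcrh and Uqcr10 were not called.

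Cycs (ENSMUSG00000063694), the mobile electron carrier between complexes III and IV and also a trigger of apoptosis when released, had 15.4, 17.1 and 19.4 CPM in EBD2, 48.5, 42.8 and 55.5 in EBD5 and 28.2, 19.3 and 18.8 in EBD6. The EBD5 libraries lay above all others, and EBD2 and EBD6 overlapped. It rose by 1.48 ± 0.17 on the log2 scale (adjusted p = 1.97e-05). Cyct, the testis cytochrome c, which the symbol rule does not reach, fell in the same comparison by 0.65 ± 0.10 (adjusted p = 0.000209), from 53.5 to 33.9 CPM. All counts of Cycs were whole numbers, as they are where no read is shared out among copies, in a gene known for many processed pseudogenes.

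**Figure D3:**
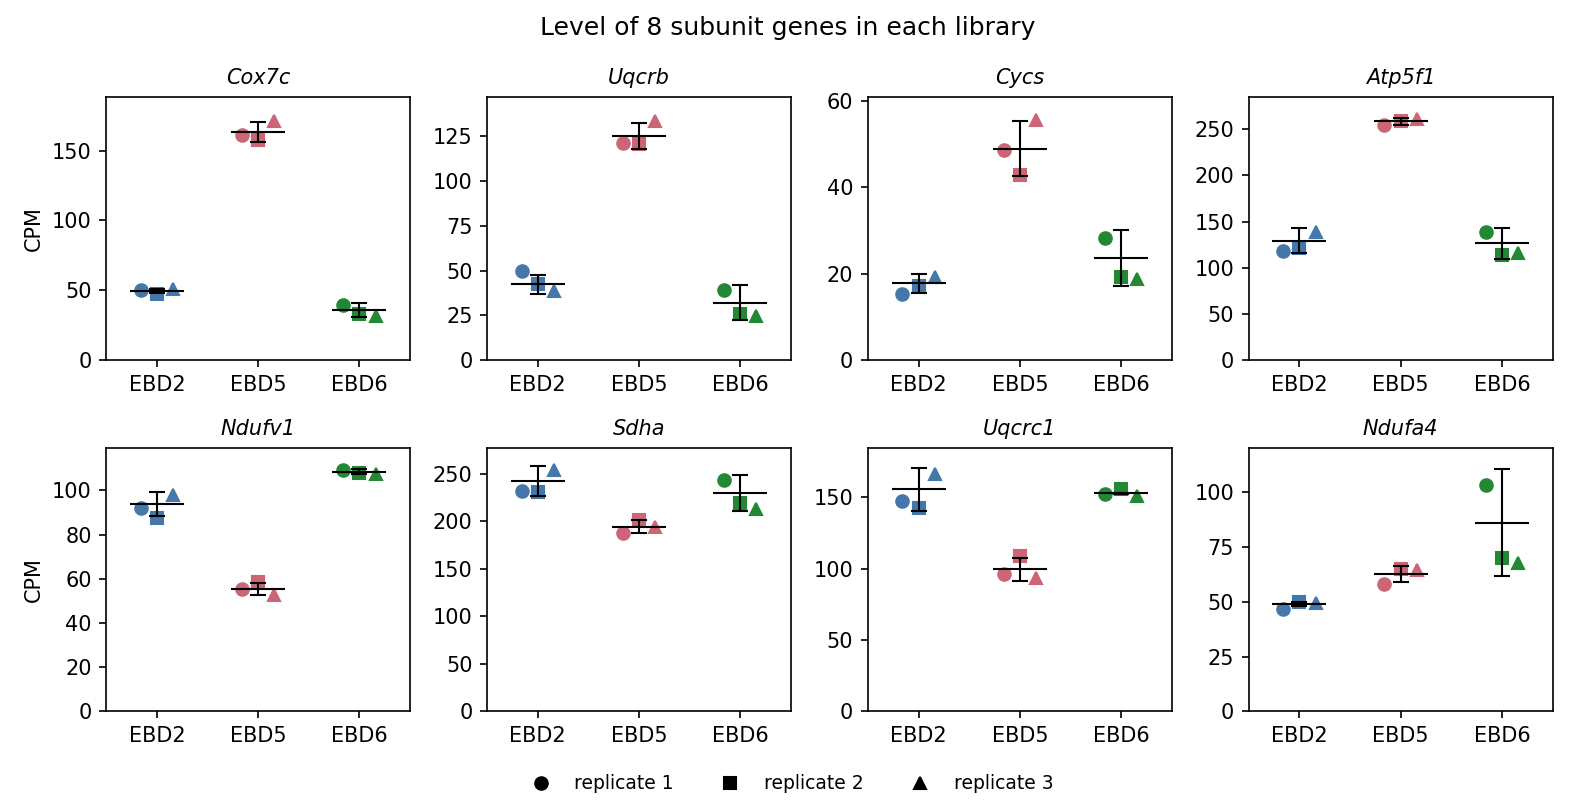
Level (CPM, y axis) of 8 subunit genes in each library of EBD2, EBD5 and EBD6 (x axis), with the mean and SD over samples (n = 2, 3 and 2) as black bars. Cox7c, Uqcrb, Cycs and Atp5f1 lie highest in EBD5, Ndufv1, Sdha and Uqcrc1 lie lowest there, and EBD6 replicate 1 stands above the other EBD6 libraries for Ndufa4.

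Complex IV, cytochrome c oxidase, has a catalytic core made from mitochondrial DNA, and the nuclear subunits surround it. Of the 9 nuclear subunits of broad expression, 4 rose from EBD2 to EBD5 and none fell, beside 34.9% and 35.1% of all genes. Cox7c (ENSMUSG00000017778) had 50.4, 47.2 and 50.7 CPM in EBD2, 161, 157 and 171 in EBD5 and 39.8, 33.3 and 32.0 in EBD6. The groups did not overlap. It rose by 1.72 ± 0.08 (adjusted p = 2.83e-08), the largest called rise among the subunit genes with a mean of at least 10 CPM. Cox7b, Cox5a and Cox6b1 rose by 0.56 ± 0.19, 0.27 ± 0.11 and 0.24 ± 0.09, which were not called with GC content and length levelled (0.36, 0.0059 and 0.11), whereas Cox7c was (1.10). The call of Cox5a was also lost without EBD2 replicate 3 or EBD5 replicate 2 or 3 (0.22 to 0.30), and that of Cox6b1 without EBD2 replicate 1 or 3 or EBD5 replicate 1 or 3 (0.22 to 0.26). Cox7a2l, which joins complexes III and IV into supercomplexes, rose by 0.89 ± 0.11 (adjusted p = 3.09e-05). Cox4i1, the broadly expressed subunit outside the symbol rule, rose by 0.54 ± 0.09 (adjusted p = 0.000210), from 162 to 235 CPM.

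Of the paralogues of restricted expression in complex IV, Cox6b2 and Cox7a1 had enough counts to be tested, and both were highest in EBD2. Cox6b2, the testis form of Cox6b, had 61.2, 62.2 and 68.0 CPM in EBD2, 34.9, 30.6 and 38.9 in EBD5 and 51.8, 34.8 and 34.4 in EBD6. EBD2 lay above both other groups, which overlapped each other. It fell by 0.89 ± 0.15 to EBD5 (adjusted p = 0.000353) and was 0.64 ± 0.16 lower in EBD6 than EBD2 (adjusted p = 0.00425). Per length, Cox6b2 made up 48.2% to 50.3% of the Cox6b1 and Cox6b2 transcripts in EBD2 libraries, 29.0% to 32.9% in EBD5 and 37.2% to 42.0% in EBD6.

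Cox7a1, the form of heart and skeletal muscle, had 8.14, 8.32 and 9.33 CPM in EBD2, 3.42, 2.84 and 2.27 in EBD5 and 6.34, 5.85 and 5.78 in EBD6. The groups did not overlap. It fell by 1.60 ± 0.22 to EBD5 (adjusted p = 5.98e-05) and rose by 1.07 ± 0.22 from there to EBD6 (adjusted p = 0.00120), or by 0.68 with GC content and length levelled. Its share of the Cox7a1 and Cox7a2 transcripts per length was 16.8% to 19.2%, 5.10% to 8.48% and 10.3% to 13.6%. Cox7a2 itself was not called in any of the 3 comparisons.

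Both rarer forms known from testis also had most of their counts in EBD2. Cox7b2, another testis form, had 10, 10 and 6 counts in EBD2, 0, 1 and 3 in EBD5 and 1, 2 and 3 in EBD6. Cox8c, also known from testis, had 7, 2 and 3 counts in EBD2 and none elsewhere. Against a floor of 3 counts over the group, its EBD2 level was 3.81-fold that of EBD5 and 6.61-fold that of EBD6. The floor covers counting error only in the groups without counts, not that of the EBD2 counts. Cox8b and Cox6a2, forms of heart and muscle, had no count in EBD2 or EBD5, and the 3 counts of Cox6a2 were in EBD6. Ndufa4l2, the hypoxia-inducible relative of Ndufa4, had 4.41, 3.10 and 3.52 CPM in EBD2, 0.180, 0.167 and 0.567 in EBD5 and 0.352, 0.450 and 0.401 in EBD6. EBD2 alone stood apart, and the fall to EBD5 was 3.56 ± 0.44 (adjusted p = 2.82e-05) and the log2 fold change of EBD6 against EBD2 was -3.12 ± 0.38 (adjusted p = 3.14e-05). These genes were among the lowest of the set.

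Summed markers of the tissues that these forms are named for were also highest in EBD2, but 1 gene made up most of each sum. A list of 6 male germ cell genes summed to 59.2 to 63.0 CPM in EBD2, 27.2 to 30.8 in EBD5 and 29.0 to 30.8 in EBD6. Nearly all of it was Ddx4, at 60.0, 27.9 and 27.3 CPM, while Tnp1 and Pgk2 were at 0 in every library and Prm1 had 2 counts in EBD2 and none elsewhere. Ldhc was highest in EBD6, at 1.49, 0.525 and 2.78 CPM in EBD2, EBD5 and EBD6. A list of 9 muscle genes summed to 154 to 171, 34.8 to 38.1 and 18.1 to 20.96 CPM, of which Ttn made up 143, 26.2 and 3.82 CPM. Myh6, Myl2 and Myl7 were also highest in EBD2, at 9.26, 2.56 and 3.29 CPM there. In EBD5 they had 3.19, 0.119 and 0.245 CPM. Myh7 (2.72, 2.72 and 4.63 CPM), Tnnt2 (0.254, 0.717 and 2.43) and Actc1 (0.898, 2.73 and 3.47) were instead highest in EBD6. Of the 7 muscle genes tested, 1 was higher and 4 lower in EBD5 than EBD2, and 3 were higher and 4 lower in EBD6 than EBD2. Ckm had at most 5 counts in a library and Myod1 at most 2. The part of such cells in the levels of the paralogues was not tested.

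**Figure D4:**
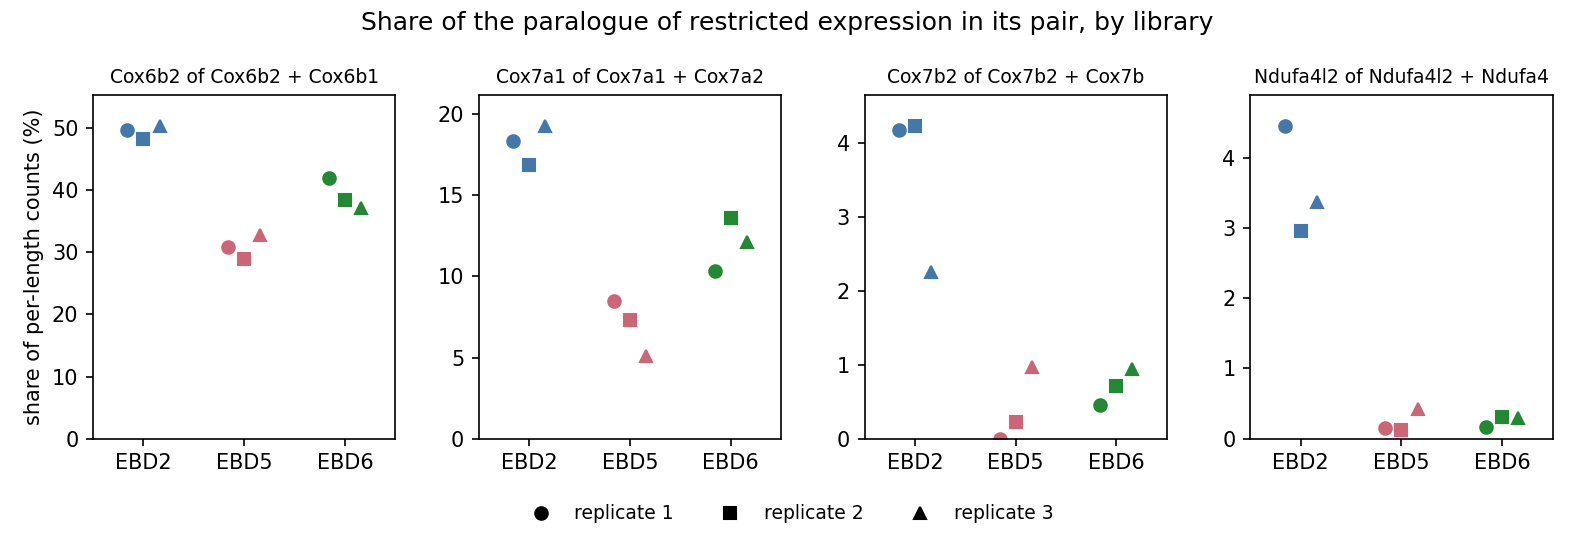
Share (%, y axis) of a paralogue of restricted expression in the per-length counts of its pair, in each library of EBD2, EBD5 and EBD6 (x axis), with a separate scale in each panel. The EBD2 libraries lie highest in each, from 48.2% to 50.3% for Cox6b2 and from 16.8% to 19.2% for Cox7a1.

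In complex V, ATP synthase, called changes between EBD2 and EBD5 came from parts of the enzyme that differ in role. Atp5f1 (ENSMUSG00000000563), the b subunit of the peripheral stalk, had 118, 121 and 139 CPM in EBD2, 255, 259 and 261 in EBD5 and 139, 114 and 116 in EBD6. The EBD5 libraries held the most, and the other groups overlapped. It rose by 1.01 ± 0.09 (adjusted p = 2.19e-06). Its counts were fractional in 8 of 9 libraries, so that reads were shared with other loci in part. Atp5j, another stalk subunit, rose by 0.46 ± 0.14 (adjusted p = 0.0112), and Atp5h and Atp5o were not called. In F1, the part that holds the catalytic subunits, Atp5c1, the gamma subunit, rose by 0.44 ± 0.08. Atp5d, the delta subunit, fell by 0.34 ± 0.09, while Atp5a1, Atp5b and Atp5e were not called. With GC content and length levelled, Atp5d was higher in EBD5 instead (0.28, adjusted p = 0.0330). Atp5s, the coupling factor B, fell by 0.46 ± 0.10 (adjusted p = 0.00171).

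The c ring, the rotor that protons turn, is encoded by 3 genes for the same mature protein. Atp5g1 rose by 0.95 ± 0.14 (adjusted p = 8.83e-05), from 18.8 to 21.2 CPM in EBD2 libraries to 36.9 to 38.7 in EBD5, with 21.04 to 29.6 in EBD6. Atp5g3 was not called between EBD2 and EBD5 and was higher in EBD6 than in both, by 0.45 ± 0.09 against EBD2 (adjusted p = 0.00105) and by 0.34 ± 0.08 against EBD5 (adjusted p = 0.00344). Atp5g2 fell from EBD5 to EBD6 by 0.64 ± 0.20 (adjusted p = 0.0137), a call lost without EBD5 replicate 1 (-0.47), while the fall was larger with GC content and length levelled (-1.13). The 3 genes thus led in different groups: Atp5g1 in EBD5, Atp5g3 in EBD6, and Atp5g2 with overlapping levels in EBD2 and EBD5.

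Between EBD5 and EBD6, 25 subunit genes were higher in EBD6 (30.9%, against 36.9% of all genes tested) and 18 were lower (22.2%, against 33.3%). The median log2 fold change was 0.09, beside 0.04 over all genes, and 38 genes were not called. In complex I 15 rose and 2 fell, in complex II 3 rose and none fell, in complex III 3 rose and 2 fell, in complex IV 1 rose and 5 fell, and in complex V 3 rose and 8 fell. In complex I it was 18 and 9 with GC content and length levelled. This comparison and that of EBD5 with EBD2 share the EBD5 libraries, so that opposite directions in them are not separate observations. Other protein-coding genes with transcripts under 1000 bases, as most subunit genes have, were called higher in 45.5% and lower in 27.2% of 2315 cases.

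Of the complex I genes, Ndufa9, an accessory subunit near the ubiquinone site, had 74.6, 76.0 and 80.0 CPM in EBD2, 66.3, 77.9 and 70.4 in EBD5 and 123, 107 and 105 in EBD6. EBD6 lay above the other 2 groups, which overlapped. It rose by 0.66 ± 0.09 from EBD5 (adjusted p = 3.94e-05) and was 0.55 ± 0.09 higher than in EBD2 (adjusted p = 0.000305). Ndufb2 rose by 0.82 ± 0.11 (adjusted p = 6.84e-05), Ndufa3 by 0.82, Ndufa2 by 0.61 and Ndufa11 by 0.61, of which Ndufa11 was not called with GC content and length levelled (0.13). Ndufb4 and Ndufs5 were the 2 that fell.

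The fall of Cox7c from EBD5 to EBD6 was 2.22 ± 0.09 (adjusted p = 1.22e-08), that of Uqcrb 2.06 ± 0.15 (adjusted p = 5.45e-07) and that of Cycs 1.13 ± 0.16 (adjusted p = 8.72e-05). Atp5f1 fell by 1.04 ± 0.09, Cox7b by 1.003 ± 0.19 and Cox7a2l by 0.83 ± 0.11. With GC content and length levelled all 6 were still called, but the falls of Cox7c (-1.42), Uqcrb (-1.27), Cycs (-0.47) and Cox7b (-0.53) were smaller by over 1.5 times on the log2 scale. Cox6c, a small subunit of complex IV, had 105, 112 and 115 CPM in EBD2, 117, 134 and 120 in EBD5 and 67.8, 48.9 and 53.1 in EBD6. EBD6 was the group that stood apart, with a fall of 1.11 ± 0.11 (adjusted p = 4.67e-06) from EBD5. Its counts were fractional in 7 libraries. In the F1 part of ATP synthase Atp5d rose by 0.90 ± 0.08 (adjusted p = 3.16e-06) and Atp5e, the epsilon subunit, by 0.77 ± 0.11 (adjusted p = 7.29e-05), while Atp5c1 fell by 0.60 ± 0.08 and Atp5b by 0.25 ± 0.08. With GC content and length levelled, the rise of Atp5d was not called (0.03) and that of Atp5e was smaller (0.37), and the call of Atp5b was lost without EBD5 replicate 3 (-0.22).

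Between EBD2 and EBD6, 20 subunit genes were higher in EBD6 (24.7%, against 33.8% of all genes tested) and 12 were lower (14.8%, against 32.3%), with 49 not called. Only 1 of these calls passed 2-fold, Ndufa4l2, beside 27.3% of all genes. The median size of the log2 fold change was 0.24, beside 0.53 over all genes. In the range of 10 to 200 CPM, no subunit gene was called past 2-fold, beside 17.8% of all genes. The median sizes were 0.24 and 0.42 there. In complex I 10 were higher and 3 lower, in complex II 2 and 0, in complex III 4 and 1, in complex IV 0 and 4 and in complex V 4 and 4. In complex I it was 7 and 6 with GC content and length levelled. Ndufa4, which bears a complex I name but is known as a subunit of complex IV, had 46.7, 50.1 and 49.7 CPM in EBD2, 58.2, 64.8 and 64.6 in EBD5 and 103, 70.0 and 67.6 in EBD6. The groups did not overlap, and the rise from EBD2 to EBD6 was 0.77 ± 0.16 (adjusted p = 0.00116). Atp5e (0.68 ± 0.11), Atp5d (0.57 ± 0.09), Uqcrq (0.57 ± 0.17) and Uqcrfs1 (0.46 ± 0.08) were higher too, of which Atp5e (0.45) and Atp5d (0.30) were smaller by over 1.5 times with GC content and length levelled. Cox6c was 0.95 ± 0.12 lower in EBD6 on the log2 scale (log2 fold change -0.95, adjusted p = 2.70e-05), and Atp5s had 36.0 to 38.4 CPM in EBD2 and 19.2 to 20.3 in EBD6 (log2 fold change -0.94, adjusted p = 1.89e-05).

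The EBD6 values rest in part on replicate 1, which stood apart from the other EBD6 libraries for these genes. In it 76 of the 81 subunit genes were higher than the mean of the group's other 2 libraries, with a median log2 difference of 0.33, beside -0.05 over all genes tested and 0.04 over other short protein-coding genes. Subunit genes took 0.683% of its counts, against 0.583% and 0.582% in EBD6 replicates 2 and 3. Without it EBD6 is 1 sample, assumed to vary like the other groups. Then 16 subunit genes were higher and 26 lower in EBD6 than EBD2, against 20 and 12 with it, and complex I had 8 higher and 11 lower. Between EBD5 and EBD6, 17 were higher and 25 lower without it, and complex I had 10 higher and 5 lower. Over all alternatives but the test against a fold, Cox7c and Uqcrb stayed called in EBD6 against EBD5, with log2 fold changes between -2.31 and -1.42 and between -2.29 and -1.27. EBD2 replicate 3 stood apart in the same direction but less, with 67 genes above the group's other 2 libraries and a median of 0.12.

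**Figure D5:**
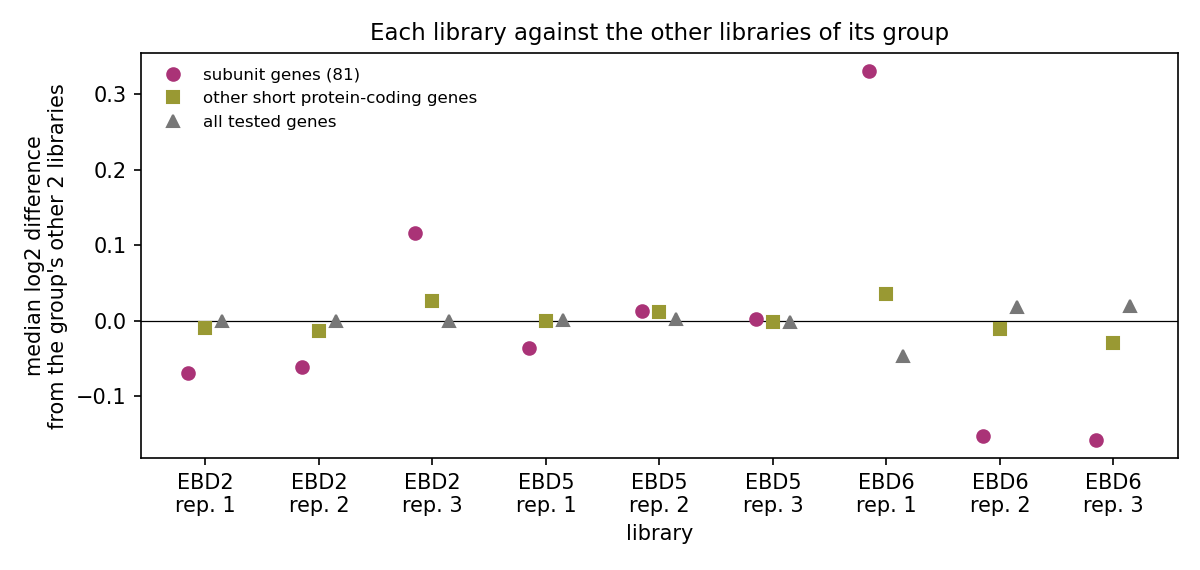
Median log2 difference (y axis) of each library (x axis) from the mean of the other 2 libraries of its group, for the subunit genes, for other protein-coding genes with transcripts under 1000 bases and for all genes tested. EBD6 replicate 1 lies at 0.33 for the subunit genes and near 0 for the others.

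The partners of the nuclear subunits were described from lists of related genes. Of the 13 proteins encoded by mitochondrial DNA, 7 could be tested, and all 7 rose from EBD2 to EBD5, fell from EBD5 to EBD6 and were lower in EBD6 than EBD2. mt-Co1, the catalytic subunit of complex IV, went from 321 to 2287 CPM and back to 160, a log2 fold change of 2.83 ± 0.20 and then -3.87 ± 0.21. These genes took 0.0933% to 0.158% of counts in EBD2, 0.524% to 0.601% in EBD5 and 0.0345% to 0.0824% in EBD6. The 3 groups did not overlap in this share. Within the pairs counted as 1 sample it nevertheless differed, from 0.0933% to 0.158% in EBD2 replicates 1 and 2 and from 0.0345% to 0.0603% in EBD6 replicates 2 and 3. Mitochondrial ribosomal RNA moved with these genes, at 0.0105% to 0.0168% of counts in EBD2, 0.520% to 0.546% in EBD5 and 0.00470% to 0.0111% in EBD6, and nuclear ribosomal RNA was also highest in EBD5. The part of this difference in RNA classes in the mitochondrial transcripts was not tested. In the same comparison of EBD5 with EBD2, 18 of the 81 nuclear subunit genes rose and 21 fell, beside 34.9% and 35.1% of all genes. In complex I 3 rose and 12 fell, in complex II 1 and 2, and in complex III 3 and 3. Cytochrome c rose, and in complexes IV and V 5 rose and 2 fell in each.

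Assembly factors, which build the complexes without staying in them, are read beside the 34.9% of all genes that rose and the 35.1% that fell from EBD2 to EBD5. For complex I, 2 of 19 tested rose and 12 fell (median -0.48). Ecsit fell by 1.02 ± 0.09 and Ndufaf2 by 1.08 ± 0.16. From EBD5 to EBD6 9 rose and 5 fell, beside 36.9% and 33.3% of all genes. For cytochrome c oxidase assembly 5 of 24 rose and 8 fell from EBD2 to EBD5, for complexes II and III it was 3 and 3 of 10, and for ATP synthase 1 and 1 of 5. Of 17 tested regulators of mitochondrial biogenesis, 3 rose and 10 fell, among them Polrmt, the mitochondrial RNA polymerase (-1.08 ± 0.13), and Esrrb (-0.97 ± 0.06). Esrrb is also counted among the pluripotency markers. Tfb2m, the partner of Polrmt in initiation, rose by 1.02 ± 0.16.

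In the tricarboxylic acid cycle, which feeds the chain, 3 of 18 genes rose and 9 fell from EBD2 to EBD5. In glycolysis 10 of 19 rose and 7 fell, again beside 34.9% and 35.1% of all genes. Gapdh rose by 2.42 ± 0.08 and Slc2a3, a glucose transporter, by 2.02 ± 0.09, while Hk1 fell by 1.79 ± 0.08. Of 7 carriers that exchange ATP, ADP and phosphate or form the outer membrane channel, 5 rose and 1 fell. Slc25a4, the ADP/ATP carrier of muscle and heart, went from 131 to 261 CPM (log2 fold change 0.998 ± 0.07) and Slc25a31, the carrier known from testis, fell by 2.23 ± 0.40 to 0.848 CPM.

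Processed copies of subunit genes, where named after their parent, were counted as genes of their own. Atp5k-ps2 had 1 count in EBD2, 77 in EBD5 and 1 in EBD6, and Uqcrh-ps2 had 42, 0 and 55. Their parents Atp5k and Uqcrh were not called in any of the 3 comparisons. The second gene ID of Atp5o had up to 22.4 counts in some libraries and under 1 in others, and its level is uncertain because both IDs share reads. Over the 85 genes, 63 had whole counts in every library (74.1%), near the 77.5% of all genes with counts.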

How the data were processed

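Polyadenylated RNA of 9 libraries was measured, 3 each of EBD2, EBD5 and EBD6. The authors deposited expected counts, that is, estimated counts per gene that need not be whole and were not scaled to depth or length. Per the submitters' processing notes, the build was mm10 and the tools, whose roles are not recorded, were RSEM 1.3.30, STAR 2.7.10a, cutadapt 1.18, DESeq2 1.38.3 and edgeR 3.40.2. Whether counting used strand is not given in the sources used here, and overlapping genes may share reads. A second table held the same EBD6 values in all 54233 rows, 1 of which names no gene, took at most 0.0157% of counts and was left out.

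Counts were rounded. Within a group, pairs of replicates were set against sampling noise by chi-square, using genes with 20 or more counts between them, and near-identical pairs were summed, which left 7 samples. Genes were kept by filterByExpr, scaled by TMM factors and fitted in R 4.3.3 with edgeR 4.0.16 (quasi-likelihood F test, the 3 groups in 1 fit, 4 residual degrees of freedom), with Benjamini-Hochberg adjustment over 16168 genes. CPM of single libraries use the scaling factor of their sample. The test was tried on simulated data.

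Alternatives were limma-voom (limma 3.58.1), DESeq2 1.42.0 and its size factors, low counts unfiltered or filtered at 5 CPM in 3 libraries, fits of 2 groups alone, a test against a fold of 1.5, 9 separate libraries with or without a replicate block, EBD5 replicates 1 and 3 as 1 sample, the second table's EBD6, bins of GC content and length, library sizes without ribosomal, mitochondrial and pseudogene rows, merged exon lengths, and each library left out.

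The genes, the lists and the tests were chosen with earlier results of these data known. Any subunit gene may be named. Values in full go to the leading genes of each complex by level or by called change, to paralogues and to genes against their complex's majority. The text prints a subset, with 1 gene not reported here by name, picked after values were seen, as were the roles by which genes are grouped.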

Additional observations from a re-analysis of the deposited data

How the results depend on the processing

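The balance of higher and lower subunit genes was not stable. In EBD5 against EBD2 it was 18 higher and 21 lower, and turned under DESeq2 size factors (18 and 17), 9 separate libraries with or without the block (21 and 19), GC content and length levelled (21 and 18), library sizes without ribosomal, mitochondrial and pseudogene rows (20 and 16), and without EBD5 replicate 1 (17 and 16) or EBD6 replicate 3 (21 and 20), and was even without EBD2 replicate 2 (20 each). In EBD6 against EBD5, 25 and 18 turned with 9 separate libraries (23 and 25, or 24 and 25 with the block) and without EBD6 replicate 1 (17 and 25). In EBD6 against EBD2, 20 and 12 became 17 each with GC content and length levelled, 21 each with 9 separate libraries, and 16 and 26 without EBD6 replicate 1. The balance also turned in all 3 under a test against a fold of 1.5. The balance could turn without a count of called subunit genes moving by over 1.5 times. Counts that did move so far are given next. In EBD5 against EBD2, 9 higher and 4 lower genes passed a test against a fold of 1.5. In EBD6 against EBD5 that test left 5 and 10, and in EBD6 against EBD2 0 and 3. DESeq2 called 11 genes higher in EBD6 than EBD2, against 20. Taking 9 separate libraries called 21 lower there, against 12. Over all genes, the test against a fold of 1.5 left 2972 higher and 2634 lower in EBD5 against EBD2, 2844 and 2473 in EBD6 against EBD5, and 2655 and 2263 in EBD6 against EBD2. With each library left out in turn, subunit genes lower in EBD6 than EBD2 numbered 8 to 26, the most without EBD6 replicate 1. A replicate block with 9 separate libraries also called 21 subunit genes lower in EBD6 than EBD2 and changed no other count by over 1.5 times. The replicate numbers are in the labels of all groups. Deviations of same-numbered libraries correlated at -0.08 to 0.05, which gives no sign that the numbers pair the samples. These values cannot exclude a pairing, since near-identical libraries leave little deviation to correlate.

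Calls that turned direction did so with GC content and length levelled. In EBD5 against EBD2 these were Atp5d (0.28), Cyc1 (0.0224), Ndufa11 (0.0811) and Ndufa13 (0.25). In EBD6 against EBD5 they were Atp5l (0.11), Cyc1 (-0.11), Ndufa7 (-0.11), Ndufa8 (-0.18), Ndufb7 (-0.29), Ndufs8 (-0.21) and Sdhb (-0.15), and in EBD6 against EBD2 Cyc1 (-0.0853) and Ndufs7 (-0.0050). The cause was not tested. Some genes were called in the same direction under every alternative that tested them, leaving aside the test against a fold. In EBD5 against EBD2 these were 13 higher and 9 lower genes. They were 10 and 12 in EBD6 against EBD5, and 11 and 7 in EBD6 against EBD2. The filter at 5 CPM in 3 libraries left 79 subunit genes to test. Depth limits the genes with few counts, among them Cox7b2 and Cox8c.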
